A study of Drosophila melanogaster with 4 samples.

Results

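Frame-preserving skipped exons are internal exons whose length is divisible by 3, so that leaving them out of a coding mRNA removes whole codons and keeps the reading frame downstream. They were chosen from the skipped exon events listed in all 4 pairwise comparisons of the deposited data. Among the listed events the choice used the length of the middle exon and no inclusion value. Listing itself goes with depth. There were 2004 events listed in any comparison, and those listed in all 4 had at least 20 read pairs in every library. The choice gave 925 of 1864 events, and the other 939 events, with lengths not divisible by 3, are called frame-shifting here. The libraries were made from poly(A) RNA of whole Drosophila melanogaster larvae. There were 2 libraries of Smn mutants (SmnX7/D) and 2 of wild type (Oregon R), all collected 74 ± 2 hours after egg laying and grown at 24 ± 1 °C. Smn codes for the survival motor neuron protein, which works in the assembly of spliceosomal small nuclear ribonucleoproteins. The series' title describes the mutants as developmentally arrested, so genotype and developmental stage cannot be told apart in these age-matched libraries. The mutants and the wild type are also different strains, and no label says whether the 2 libraries of a group came from separate cultures, so p-values measure only the spread between these samples.

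Exon skipping is a common form of alternative splicing, in which the spliceosome joins the exons on either side of a cassette exon and leaves that exon out with its flanking introns. Where the exon is short and of a length divisible by 3, the outcome is usually a protein with or without a short internal stretch. Where the length is not divisible by 3, skipping shifts the frame and often brings a premature stop codon, and such transcripts are commonly degraded by nonsense-mediated decay. Microexons, very short cassette exons of this kind, are well known from nervous tissue, and many sarcomere and cytoskeleton genes of flies carry cassettes that differ between tissues.

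The exons printed next show what is kept or removed. They are 4 of the 7 exons that met the Bayes factor rule given further on, both cassettes of Ist1, which were among the largest differences of well covered exons but did not meet that rule, and 1 exon of the splicing regulator gene sqd. Each line gives the exon in capitals between the last 20 bases of the upstream intron and the first 10 bases of the downstream intron in lower case, 5′ to 3′ on the transcribed strand. All lie on the minus strand. The letters are from the RefSeq genome of the dm6 assembly, at the annotated exon of equal length with flanking introns of equal length. The positions written as chr3R:start-end in the lines are dm6, whereas positions of events elsewhere in the text are dm3, as deposited.
CG18748 exon of 150 bases (chr3R:7787518-7787667): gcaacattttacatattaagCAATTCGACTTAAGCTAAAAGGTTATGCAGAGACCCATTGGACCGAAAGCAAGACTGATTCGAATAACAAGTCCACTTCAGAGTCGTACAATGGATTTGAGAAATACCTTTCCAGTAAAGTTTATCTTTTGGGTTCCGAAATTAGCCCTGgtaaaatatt
Lsd-2 exon of 51 bases (chrX:15073341-15073391): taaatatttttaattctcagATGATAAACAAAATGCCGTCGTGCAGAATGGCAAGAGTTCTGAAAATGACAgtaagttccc
dre4 exon of 117 bases (chr3L:1872354-1872470): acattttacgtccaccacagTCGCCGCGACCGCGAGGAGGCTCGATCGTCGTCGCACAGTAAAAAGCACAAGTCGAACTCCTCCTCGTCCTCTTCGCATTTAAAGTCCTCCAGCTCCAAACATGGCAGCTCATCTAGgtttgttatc
fon exon of 36 bases (chr2L:19385670-19385705): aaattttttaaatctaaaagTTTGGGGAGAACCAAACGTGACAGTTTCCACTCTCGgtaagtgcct
Ist1 exon of 63 bases (chr3L:6754745-6754807): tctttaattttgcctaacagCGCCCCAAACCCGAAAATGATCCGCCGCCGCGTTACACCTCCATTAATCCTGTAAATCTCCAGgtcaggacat
Ist1 exon of 51 bases (chr3L:6755073-6755123): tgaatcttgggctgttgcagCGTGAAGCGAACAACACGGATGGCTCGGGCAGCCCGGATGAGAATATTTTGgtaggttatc
sqd exon of 108 bases (chr3R:13636971-13637078): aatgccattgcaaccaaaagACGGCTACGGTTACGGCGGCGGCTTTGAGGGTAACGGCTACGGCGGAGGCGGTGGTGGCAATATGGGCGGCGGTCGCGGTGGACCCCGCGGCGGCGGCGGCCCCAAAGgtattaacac
Every one of these exons follows an AG and precedes a GT, as did 779 of the 779 and 776 of the 779 members that could be matched to an annotated exon. The exon of CG18748 adds 50 codons, that of Lsd-2 adds 17, that of dre4 adds 39 and that of fon adds 12. The exons of Ist1 add 21 codons and 17 codons, and the exon of sqd adds 36. Its bases were 73.1% G or C, against a median of 51.9% over the matched members, and the sequence repeats GGC and GGT codons in the annotated frame. The downstream junction of Lsd-2 and that of fon read GTAAGT, which with GTGAGT was found at the start of the downstream intron of 32.0% of matched members and 35.1% of matched frame-shifting exons.

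Inclusion was measured as the fraction of transcripts that hold the exon, a posterior mean estimated by the authors with MISO and rounded to 0.01. MISO, a mixture model for isoform abundance, uses every read pair of an event. Pairs that fit only the inclusion form or only the skipping form are called isoform-specific here. The members held 879798 and 836951 read pairs in the mutant libraries and 687379 and 499550 in the wild type libraries, of which 183962 and 173003, against 140147 and 111693, were isoform-specific. The median member had 286 and 304 read pairs in mutants and 200 and 144 in wild type, so the wild type fractions were the less precise. The read pair totals and these medians include pairs that fit neither form. Such pairs were 38.3% and 37.0% of the members' pairs in mutants and 34.6% and 35.6% in wild type. The median width of the MISO interval was 0.20 in both mutant libraries, and 0.24 and 0.29 in wild type. For 282 and 272 members in the mutant libraries, and for 360 and 443 in wild type, fewer than 20 pairs were isoform-specific. Only 432 members had at least 20 in every library, and 122 of those had a mean of at least 10 pairs of each isoform. Read pairs are not independent molecules, and intervals made from them cover counting error only. The level of Smn itself was not checked, because no skipped exon event was matched to it.

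Depth and some tissue markers differed between the groups. Over all 1864 events, the 5 genes fixed as markers of body wall muscle (Mhc, up, wupA, bt and sls) took 19.9% and 15.2% of the read pairs in mutants, against 5.54% and 4.92% in wild type. In mutants most of this lay in sls, the gene of the giant sarcomere protein Sallimus, with 14.8% and 11.6% in mutants and 1.57% and 3.42% in wild type. Without sls the other 4 took 5.15% and 3.66% in mutants and 3.97% and 1.51% in wild type, which overlap. Nervous system markers, 4 of 5 with an event (para had none), took 0.0387% and 0.0397% in mutants and 0.0477% and 0.0775% in wild type. They did not go the same way. As a share of all pairs, elav and Syt1 were lower in both mutants and brp overlapped. nSyb was slightly higher in both mutants, with 579 and 504 pairs against 268 and 199. All events together held 3080964 and 2556301 pairs in mutants and 1543221 and 1149769 in wild type. For fat body only apolpp had an event, at 1.98% and 2.41% in mutants and 5.01% and 2.05% in wild type, while Lsp2, Fbp1 and Lsp1alpha had none. All these shares count pairs that fit neither form. Among frame-shifting exons such pairs were 72.0% and 65.8% in mutants and 37.3% and 44.1% in wild type. In whole larvae, fewer cells of a type and less RNA per cell cannot be told apart. The part of tissue content in the values that follow was not tested.

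Members had a lower median inclusion than frame-shifting exons in every library. The median member had an inclusion of 0.45 and 0.49 in the mutant libraries and of 0.53 in both wild type libraries. For frame-shifting exons the median was 0.72 in both mutant libraries and 0.73 in both wild type libraries. The difference, frame-preserving minus frame-shifting, averaged -0.225 over the 4 libraries (exact sign-flip permutation test, two-sided p = 0.125, the smallest that 4 libraries allow). It shrank to -0.0913 where every library had at least 20 isoform-specific pairs, with member medians of 0.775 and 0.80 in mutants and 0.80 and 0.79 in wild type. Inclusion taken as the share of inclusion pairs among isoform-specific pairs, which takes no account of isoform length, gave -0.0932. By that measure the member medians were 0.879 and 0.885 in mutants and 0.917 and 0.923 in wild type, far above the medians of the posterior means. Frame-shifting exons themselves were not alike, with medians of 0.635 and 0.68 in mutants, and 0.67 and 0.68 in wild type, where 1 base remained after division by 3. Where 2 bases remained, the medians were 0.78 and 0.77 in mutants and 0.77 in both wild type libraries. Both sets lay above the members.

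**Figure D1:**
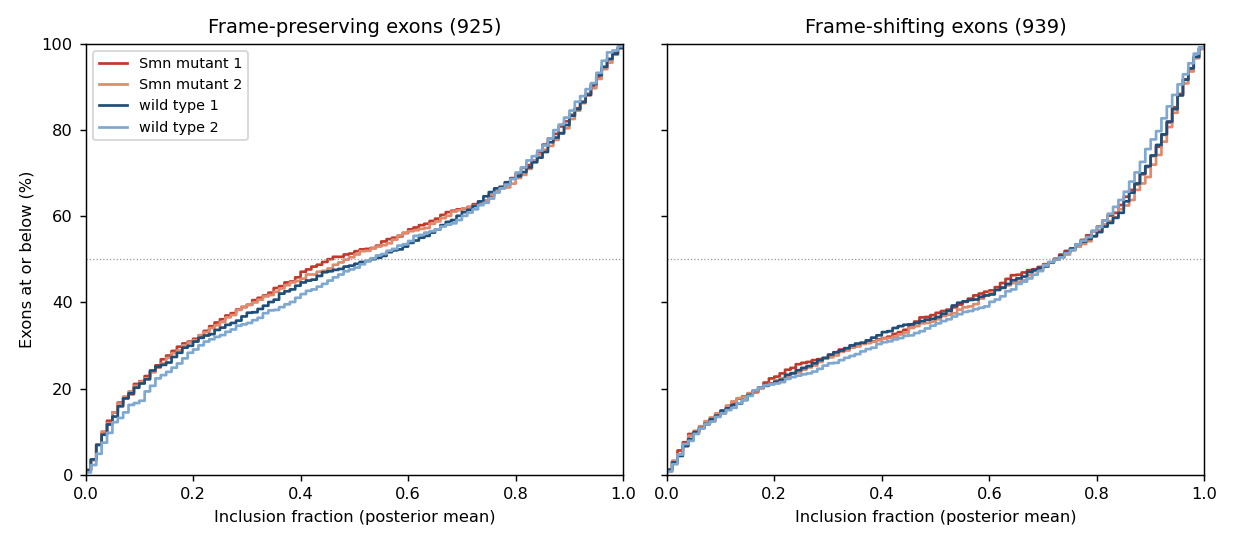
Cumulative percentage of skipped exons (vertical axis) at or below each inclusion fraction (horizontal axis, posterior mean) in each of the 4 libraries, for 925 frame-preserving and 939 frame-shifting exons. The dotted line marks the median, which lies between 0.45 and 0.53 for frame-preserving exons and at 0.72 or 0.73 for frame-shifting exons.

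Between the genotypes, the median over members averaged 0.47 ± 0.028 in mutants and 0.53 ± 0 in wild type (SD, n = 2 each), a difference of -0.06. Both mutant medians lay below both wild type medians, and an exact permutation test over libraries gave a two-sided p of 0.333, the smallest that 2 against 2 libraries allow. The median of the per-exon difference was far smaller, at -0.005. With at least 20 isoform-specific pairs in every library the medians gave -0.0075 and overlapped (exact p = 1). The share of members at intermediate inclusion, between 0.1 and 0.9, was 62.5% and 61.9% in mutants and 63.1% and 67.9% in wild type. That difference of -3.30 percentage points (exact p = 0.333) changed sign under other measures, to 1.39 with at least 20 isoform-specific pairs and to 5.15 where inclusion was taken from isoform-specific pairs.

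Inclusion went with exon length. The 47 members of 9 to 30 bases had median inclusions of 0.19 and 0.20 in mutants and 0.20 and 0.33 in wild type. The 122 members of 31 to 60 bases had 0.235 and 0.26 in mutants and 0.355 and 0.32 in wild type. From 61 to 120 bases (255 members) the medians were 0.41 in both mutant libraries, against 0.44 and 0.49 in wild type. Up to that length every library's median was under 0.5, and the mutant medians lay below the wild type medians in the classes from 31 to 60 and from 61 to 120 bases. The median of the per-exon difference in those 2 classes was only -0.03 and -0.005. Coverage was thin there. At least 20 isoform-specific pairs in every library were held by 11 of the 47, 35 of the 122 and 92 of the 255 members. The medians by length are given without that minimum. From 121 to 300 bases (298 members) the medians were 0.70 and 0.75 in mutants and 0.705 and 0.735 in wild type. The 203 members over 300 bases had 0.55 and 0.57 in mutants and 0.56 and 0.57 in wild type, so the genotypes overlapped in both classes of longer exons. Of these longer members, 159 of the 298 and 135 of the 203 met the minimum of 20 pairs. Frame-shifting exons of 31 to 60 bases had medians from 0.515 to 0.585, and those of 61 to 120 bases from 0.73 to 0.76, above the members of the same lengths in every library. Those of 121 to 300 bases had 0.66 and 0.72 in mutants and 0.71 in both wild type libraries, so there the members were the higher in 3 of the 4 libraries. Over 300 bases frame-shifting exons had 0.78 and 0.80 in mutants and 0.765 and 0.79 in wild type, again above the members.

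**Figure D2:**
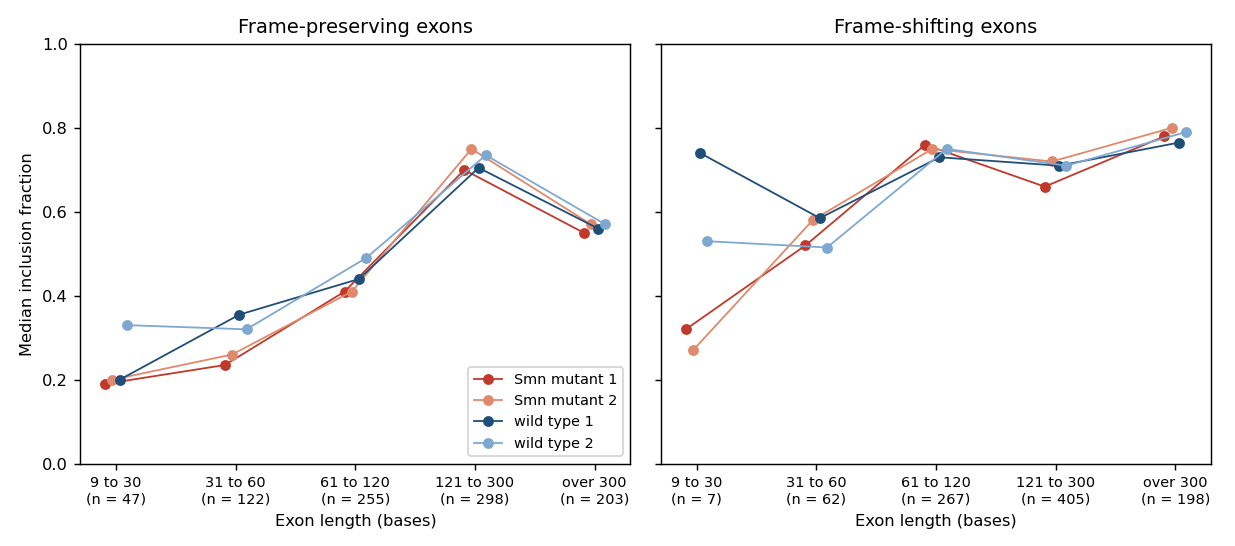
Median inclusion fraction (vertical axis) by class of exon length in bases (horizontal axis, number of exons below each class) for frame-preserving and frame-shifting exons, 1 point per library. Frame-preserving exons up to 60 bases lie between 0.19 and 0.355 and those of 121 to 300 bases between 0.70 and 0.75. The shortest frame-shifting class holds only 7 exons.

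Annotation separated the members further. Of the 779 matched members, 630 (80.9%) lay wholly inside coding sequence, against 58.7% of matched frame-shifting exons. Another 51 lay in 5′ untranslated regions and 82 held a start or stop codon, and for those the reading frame has no bearing or is not the whole matter. Inside coding sequence the median inclusion was 0.46 and 0.49 in mutants and 0.56 and 0.545 in wild type, whereas the 413 coding frame-shifting exons had 0.86 and 0.87 in mutants and 0.87 and 0.85 in wild type. Of the 630 coding members, 278 began at a codon boundary, 239 after the first base of a codon and 113 after the second. Reading through in the annotated frame met a stop codon in 1 of them. The junction that skips the exon was itself annotated for 75.4% of matched members and 33.7% of matched frame-shifting exons. Members with an annotated skipping junction had medians of 0.33 in both mutant libraries and of 0.36 and 0.39 in wild type. For the 192 members without one, the medians were 0.895 and 0.91 in mutants and 0.895 and 0.89 in wild type. The 237 frame-shifting exons with an annotated skipping junction had 0.42 and 0.40 in mutants and 0.38 and 0.39 in wild type. The 467 without one had 0.88 and 0.89 in mutants and 0.88 and 0.87 in wild type. Within each class, members and frame-shifting exons thus lay much closer together than over all exons. The part of this annotation in the lower median of members was not tested.

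Genes and chromosomes contributed unequally. The matched members came from 566 genes, of which 419 held 1 and 147 held more. Patronin, which codes for a protein that binds microtubule minus ends, held 7, the most. In all, 143 members overlapped another member and 224 shared a skipping junction with another, so these are not independent measurements. The 51 members on chromosome 4 had medians of 0.78 and 0.80 in mutants and 0.81 and 0.77 in wild type. The 37 members flanked on both sides by introns of at most 100 bases had medians of 0.78 and 0.82 in mutants and 0.88 and 0.90 in wild type. Of those 37, 37.8% were lower in both mutants than in both wild types and 5.41% were higher, where 22.5% and 21% of all skipped exons were. Among the 58 frame-shifting exons with such introns, 15.5% were lower and 17.2% higher.

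No member passed the test across all skipped exons. The log2 ratio of inclusion to skipping pairs was compared with limma for the 939 events, members and frame-shifting exons together, that had at least 20 isoform-specific pairs in every library. At a Benjamini-Hochberg adjusted p under 0.05, 0 of 432 members were called, and 0% of all events tested. The smallest adjusted p of a member was 0.25. At an unadjusted p under 0.05, 29 members were higher in mutants, where 6.6% of all events were, and 32 were lower, where 6.07% of all events were. The members' shares stood near that background. A quasi-binomial fit called 5 of 432 members, 1 higher and 4 lower, where it called 1.6% of all events tested. The 5 were rarely skipped, none with more than 2 skipping pairs in any library: exons of grp, stau, CG31145 and Klp98A, and 1 exon with no gene match. Among the 122 members with a mean of at least 10 pairs of each isoform, limma called 0, and 0% of the 210 events of that kind, with a smallest adjusted p of 0.162. Unadjusted, 7 were higher in mutants, where 8.57% of those 210 events were, and 13 were lower, where 9.52% were. On simulated data the test recovered 19.5% of 200 changes of 4 log2 units among 939 events and 0% of 200 changes of 2 log2 units, so most changes of those sizes would go uncalled. Of 40 changes of 2 log2 units among the 210 better covered events it recovered 47.5%, with 20.8% of its calls false.

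Replicate spread was close to the difference between groups. The median absolute difference of inclusion was 0.04 between the 2 mutant libraries and 0.05 between the 2 wild type libraries. Across genotypes it was 0.06, with a range from 0.05 to 0.07 over the 4 pairings. Both mutant fractions lay above both wild type fractions for 181 members (19.6%), where 21% of all skipped exons did, and below them for 223 (24.1%), where 22.5% of all skipped exons did. Among the 122 better covered members, 21 (17.2%) were higher, against 19% of all events of that kind, and 39 (32.0%) were lower, against 28.1%. With the groups at least 0.05 apart, 87 of all members (9.41%) were higher, against 9.39% of all skipped exons, and 107 (11.6%) were lower, against 10.7%.

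**Figure D3:**
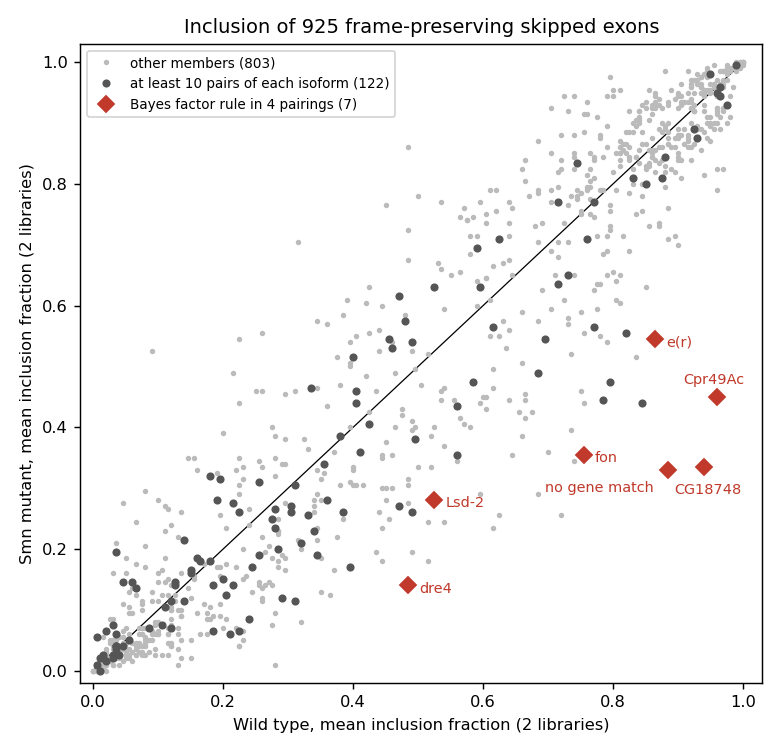
Mean inclusion fraction of the 2 Smn mutant libraries (vertical axis) against that of the 2 wild type libraries (horizontal axis) for 925 frame-preserving exons, with the line of equality. Dark points are the 122 members that averaged 10 or more read pairs of each isoform, and the 7 diamonds, all below the line, met the Bayes factor rule in all 4 pairings.

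The authors' Bayes factors, which weigh a difference between 2 libraries against none and do not model replicates, picked out 7 members. A member was counted where the Bayes factor reached 10 and the difference 0.2 with the same sign in every pairing of a mutant with a wild type library, 4 in all. The 7 were lower in mutants, 0.757% of members, where 0.536% of all skipped exons were. No member was higher by this rule, where 0.107% of all skipped exons were. For all 7, the MISO intervals of both mutants lay below those of both wild types. The count depended on the rule and on the libraries. At a difference of 0.1 it was 11, of which 3 were higher in mutants (0.966% of all skipped exons were called), and at 0.3 it was 3 (0.268% of all). In single pairings it ranged from 21 to 46, with 5 to 14 of them higher in mutants, while 2.20% to 5.04% of all skipped exons were called. With 1 library left out it ranged from 11 to 26, the highest without wild type replicate 1, while 19 to 56 of all 1864 skipped exons were called.

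Among the 7, the 27 base exon of Cpr49Ac, from a family of cuticle proteins that bind chitin, lies at 8275418 to 8275444 on 2R. Its inclusion was 0.43 and 0.47 in mutants, against 0.95 and 0.97 in wild type. Mutants had 12 and 36 inclusion pairs with 6 and 21 skipping pairs, and wild types had 265 and 480 inclusion pairs with 7 and 7 skipping pairs. With 18 isoform-specific pairs in 1 mutant library it fell under the minimum for the limma fit. The 36 base exon of fon, which codes for fondue, a secreted protein of hemolymph clots, lies at 19385670 to 19385705 on 2L. Its inclusion was 0.40 and 0.31 in mutants and 0.65 and 0.86 in wild type, so the 2 wild types differed among themselves by more than the mutants did. Mutants had 169 and 170 inclusion pairs with 33 and 37 skipping pairs, and wild types had 935 and 446 with 103 and 16. The difference in the log2 ratio, mutant minus wild type, was -1.15 (SE 0.51, limma adjusted p = 0.465), and it was -2.50 without wild type replicate 1.

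Lsd-2 codes for a perilipin, a protein on the surface of lipid droplets, and its 51 base exon lies at 14967374 to 14967424 on X. Inclusion was 0.27 and 0.29 in mutants, against 0.49 and 0.56 in wild type. This was the best covered exon of the 7 by its rarer isoform, with 93 and 104 inclusion pairs and 154 and 139 skipping pairs in mutants, and 264 and 283 inclusion pairs and 149 and 118 skipping pairs in wild type. The log2 ratio differed by -1.59 (SE 0.22, limma adjusted p = 0.25). The skipping form was the more frequent in both mutants, and the pairs alone favoured inclusion in both wild types. dre4 codes for the Spt16 subunit of FACT, a histone chaperone that acts in transcription and replication, and its 117 base exon lies at 1872354 to 1872470 on 3L. Inclusion was 0.13 and 0.15 in mutants and 0.36 and 0.61 in wild type. Inclusion pairs numbered 34 and 35 in mutants and 48 and 74 in wild type, and skipping pairs 75 and 55 in mutants and 27 and 11 in wild type. The log2 ratio differed by -2.40 (SE 0.65, limma adjusted p = 0.331). The difference in inclusion, -0.345, was -0.22 without wild type replicate 2.

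Of the other 3, the 84 base exon of e(r) lies in the 5′ untranslated region, at 8799538 to 8799621 on X, so its length has no bearing on a reading frame. e(r), enhancer of rudimentary, codes for a small conserved nuclear protein. Inclusion was 0.51 and 0.58 in mutants and 0.86 and 0.87 in wild type. Inclusion pairs numbered 97 and 101 in mutants and 143 and 149 in wild type, with 16 and 21 skipping pairs in mutants and 5 and 3 in wild type. The log2 ratio differed by -2.60 (SE 0.34, limma adjusted p = 0.25). The 150 base exon of CG18748 lies at 3613240 to 3613389 on 3R, with an inclusion of 0.31 and 0.36 in mutants and 0.93 and 0.95 in wild type, the largest difference of the 7. Mutants had 35 and 58 inclusion pairs with 8 and 9 skipping pairs, and wild types had 146 and 130 with 3 and 0. The log2 ratio differed by -3.36 (SE 0.68, limma adjusted p = 0.308), and by -5.66 without wild type replicate 1. In the mutant libraries inclusion pairs outnumbered skipping pairs although the posterior mean was under 0.5. The same held in both mutant libraries for the exons of Cpr49Ac and fon above and for the 69 base exon below. For these exons the posterior means and the pairs do not give the same size of difference. MISO also uses pairs that fit both forms and the lengths of the isoforms. The last, a 69 base exon at 22831506 to 22831574 on 2L with no gene match, had 0.31 and 0.35 in mutants and 0.95 and 0.82 in wild type, on 20 or more isoform-specific pairs per library. Mutants had 16 and 16 inclusion pairs with 4 and 8 skipping pairs, and wild types had 36 and 38 with 0 and 4. The log2 ratio differed by -2.12 (SE 0.80, limma adjusted p = 0.415).

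**Figure D4:**
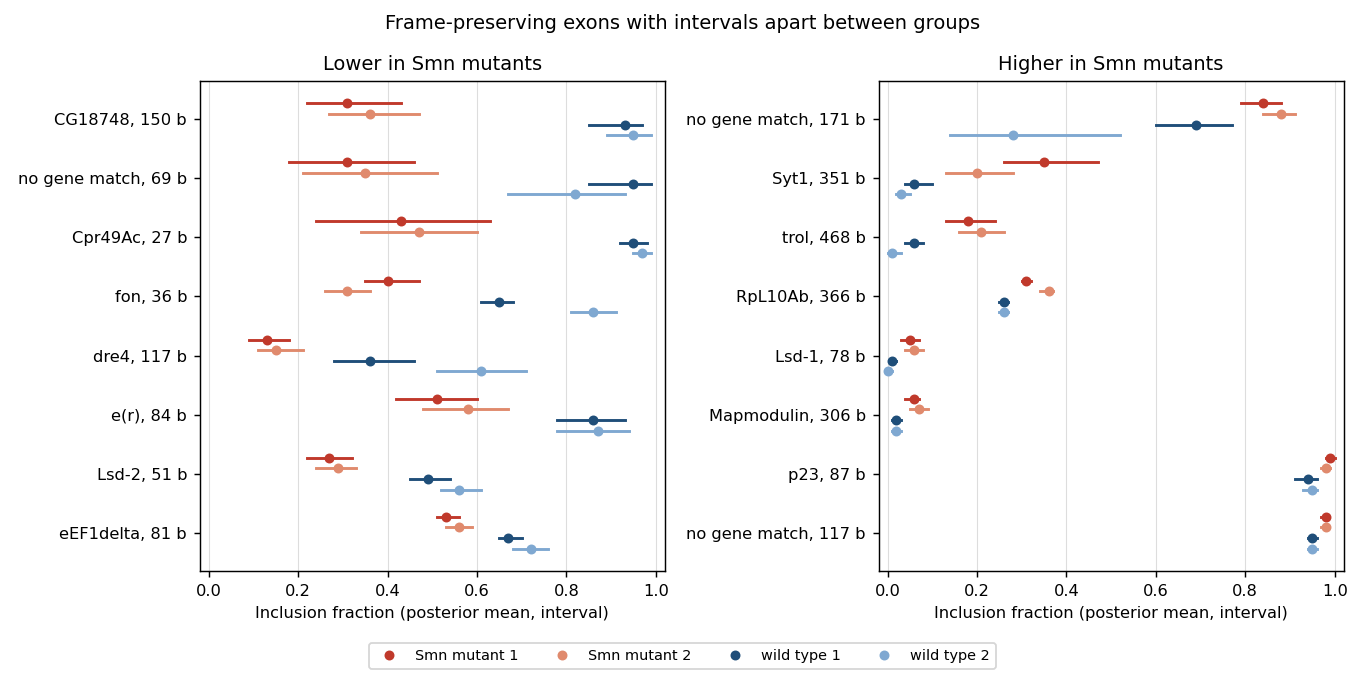
Inclusion fraction (horizontal axis, points are posterior means and lines MISO intervals) in each library for the 16 frame-preserving exons whose intervals do not overlap between the groups, named by gene and exon length in bases (b). On the left are 8 exons lower in mutants, from CG18748 to eEF1delta, and on the right 8 higher in mutants, at wider differences for an unmatched exon, Syt1 and trol and at narrow ones near 0 or 1 for the rest, apart from RpL10Ab.

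The largest differences among the other well covered members lay in Ist1, KrT95D and ema. Ist1 codes for a protein that binds the ESCRT-III complex of endosomal sorting, and its cassettes of 63 and 51 bases are skipped by the same junction. At 6747907, the end of the 63 base exon that begins at 6747845 on 3L, inclusion was 0.40 and 0.49 in mutants and 0.78 and 0.79 in wild type. For the 51 base exon at 6748173 to 6748223 it was 0.51 and 0.37 in mutants and 0.86 and 0.83 in wild type. The log2 ratios differed by -3.57 (SE 0.70, limma adjusted p = 0.296) and by -3.93 (SE 1.15, limma adjusted p = 0.341). Skipping pairs of the 63 base exon numbered 20 and 25 in mutants and 1 and 0 in wild type. The fractions of the genotypes did not overlap for either exon, but wild type had few skipping pairs. The MISO intervals were not apart. For the 63 base exon the upper bounds were 0.53 and 0.60 in mutants and the lower bounds 0.56 and 0.63 in wild type. For the 51 base exon the intervals of mutant 1 and wild type 2 met at 0.63. ema, which codes for a membrane protein of endosome maturation, had inclusions of 0.45 and 0.50 in mutants and 0.65 and 0.94 in wild type for its 207 base exon. KrT95D had 0.46 and 0.65 in mutants and 0.84 and 0.80 in wild type for an exon of 126 bases.

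Higher inclusion in mutants was seen as often as lower inclusion when the MISO intervals alone were compared. The intervals of both mutants lay above those of both wild types for 8 members, where 0.536% of all skipped exons did, and below them for 8, where 0.751% did. This comparison and its members were chosen after their values were seen. trol codes for perlecan, a proteoglycan of basement membranes, and its 468 base exon at 2393244 to 2393711 on X had an inclusion of 0.18 and 0.21 in mutants and 0.06 and 0.01 in wild type. Its inclusion pairs numbered 51 and 92 in mutants and 47 and 1 in wild type, and its skipping pairs 30 and 44 in mutants and 127 and 25 in wild type. The log2 ratio differed by 2.47 (SE 0.39, limma adjusted p = 0.25). Lsd-1, the other perilipin of flies, had 0.05 and 0.06 in mutants and 0.01 and 0 in wild type for an exon of 78 bases, with a log2 difference of 2.31 (SE 0.48, limma adjusted p = 0.313). The Lsd-1 exon was skipped in most transcripts of either genotype. Mapmodulin had 0.06 and 0.07 in mutants and 0.02 in both wild types, with a log2 difference of 1.68 (SE 0.20, limma adjusted p = 0.25).

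Other intervals apart were less secure. Syt1, which codes for the calcium sensor of synaptic vesicle release, had a 351 base exon in its 5′ untranslated region with an inclusion of 0.35 and 0.20 in mutants and 0.06 and 0.03 in wild type. Its isoform-specific pairs were nearly all of the inclusion form, with 1 and 1 skipping pairs in mutants and 3 and 3 in wild type. RpL10Ab, a gene of the large ribosomal subunit, had 0.31 and 0.36 in mutants and 0.26 in both wild types although its skipping pairs numbered 0 and 0 in mutants and 2 and 0 in wild type beside 3724 and 3890 inclusion pairs in mutants and 3115 and 3951 in wild type. In those exons the posterior mean does not follow the isoform-specific pairs. Such cases were counted only among members with no skipping pair and at least 20 inclusion pairs, which leaves out Syt1. In the mutant libraries 9 of 163 and 10 of 172 of these had a posterior mean under 0.5. In wild type it was 0 of 153 and 5 of 163. Members with skipping pairs could also show a gap, as CG18748, Cpr49Ac and fon did above. The 8877 base exon of sls had 0.34 in mutant 1 beside 689 inclusion pairs and 8 skipping pairs. How common such gaps are over all members was not counted. On the lower side, besides the 7, stood the 81 base exon of eEF1delta, a gene of translation elongation, with 0.53 and 0.56 in mutants and 0.67 and 0.72 in wild type. It was well covered, with 741 and 711 inclusion pairs and 279 and 251 skipping pairs in mutants, and 1163 and 456 inclusion pairs and 262 and 79 skipping pairs in wild type. Its log2 ratio differed by -0.79 (SE 0.12, limma adjusted p = 0.25).

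Near equality between genotypes was met by 2 members under a rule that asked for group means within 0.02, intermediate inclusion and at least 100 isoform-specific pairs in every library. The 33 base exon of CG44250 had 0.35 and 0.33 in mutants and 0.39 and 0.32 in wild type. The 96 base exon of Hrb27C, a gene of an RNA-binding hnRNP protein, lies in the 5′ untranslated region and had 0.80 and 0.74 in mutants and 0.75 and 0.79 in wild type. By isoform-specific pairs their log2 ratios differed by -0.51 (SE 0.19, limma adjusted p = 0.41) and -0.52 (SE 0.24, limma adjusted p = 0.472), so the pairs alone were less equal than the fractions.

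Splicing and RNA-binding genes held 14 members in 9 of the 28 genes listed, and 7 were tested. Of these, 0 were called and 3 had an unadjusted p under 0.05, all lower in mutants, where 6.07% of all events were. These 3 were 1 exon of sqd and 2 overlapping exons of Rm62, so they are not separate measurements. The median difference of the 7 was -0.01, against 0 over all 432 members tested. sqd codes for Squid, an hnRNP protein that acts in mRNA localization and splicing, and its 108 base exon had an inclusion of 0.17 and 0.21 in mutants and 0.29 and 0.40 in wild type. It held 19 and 24 inclusion pairs with 22 and 34 skipping pairs in mutants, and 34 and 25 with 19 and 11 in wild type, a log2 difference of -1.32 (SE 0.22, limma adjusted p = 0.25). The other 2 were overlapping exons of Rm62, a gene of a DEAD-box RNA helicase, that share 1 boundary. They were rarely included, at 0.02 and 0.02 in mutants and 0.03 and 0.03 in wild type for the 153 base form and at 0.02 and 0.01 in mutants and 0.02 and 0.02 in wild type for the 165 base form. Exons of the SR protein gene B52 (0.94 and 0.96 in mutants, 0.96 in both wild types) and of Rbfox1 (0.73 and 0.77 in mutants, 0.85 and 0.82 in wild type) were mostly included. The mbl exon had 0.90 and 0.96 in mutants and 0.89 and 0.88 in wild type.

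Muscle sarcomere genes held 18 members in 10 of 23 listed genes, and 11 were tested. Of these, 0 were called and 1 was higher at an unadjusted p under 0.05, where 6.6% of all events were, with a median difference of 0. The exception was a 231 base exon of Mf, the gene of the thick filament protein Myofilin, with a posterior mean of 0.99 in both mutants and 0.99 and 0.98 in wild type and a log2 difference of 0.97 (SE 0.28, limma adjusted p = 0.335). The longest member of all, an 8877 base exon of sls, had 0.34 and 0.29 in mutants and 0.34 and 0.36 in wild type, although the sls marker reads differed strongly between the groups. A 171 base exon of Mf had 0.13 and 0.16 in mutants and 0.12 and 0.13 in wild type on 532 or more isoform-specific pairs per library. The wupA exon of 183 bases, in the gene of troponin I, was skipped throughout, at 0 in every library. Of the exons of Zasp52, a Z-disc gene, that share 1 boundary and a skipping junction, the 330 base form had 0.05 and 0.08 in mutants and 0.04 and 0.33 in wild type, and the 1080 base form 0.06 and 0.11 in mutants and 0.07 and 0.41 in wild type. Wild type replicate 2 stood above the other libraries in both, and the groups overlapped for each.

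Cytoskeleton and adhesion genes held 30 members in 15 of 24 listed genes, and 16 were tested. Of these, 0 were called, 1 was higher and 1 lower at an unadjusted p under 0.05, where 6.6% and 6.07% of all events were, and the median difference was 0.005. Mbs codes for the subunit that targets the phosphatase of myosin, and its 831 base exon had 0.24 and 0.28 in mutants and 0.55 and 0.43 in wild type, with a log2 difference of -1.10 (SE 0.19, limma adjusted p = 0.25). A second Mbs exon, of 387 bases, had 0.21 and 0.26 in mutants and 0.47 and 0.76 in wild type. For both exons of the gene the fractions of both mutants lay below those of both wild types, but the MISO intervals overlapped between the groups. Wild type had 3 and 0 skipping pairs for the 387 base exon. cher codes for filamin, a crosslinker of actin, and its 567 base exon had 0.09 and 0.06 in mutants and 0.04 and 0.02 in wild type, with a log2 difference of 1.84 (SE 0.33, limma adjusted p = 0.25). Exons of alpha-Spec, a spectrin gene, were mostly skipped, at 0.08 and 0.05 in mutants and 0.07 and 0.02 in wild type for the 30 base exon. The kst cassette of 330 bases, in the gene of another spectrin, had 0.25 in both mutants and 0.21 and 0.34 in wild type. The 684 base exon of Pax, the gene of the focal adhesion protein paxillin, was included throughout, at 1 in every library.

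Neuronal genes held 20 members in 11 of 31 listed genes, but only 3 passed the minimum of read pairs, and 0 were called. The 66 base exon of shot, the gene of a spectraplakin that links actin and microtubules, had 0.48 and 0.65 in mutants and 0.68 and 0.86 in wild type, and a log2 difference of -1.48 (SE 0.86, limma adjusted p = 0.496). Exons of Sap47, at 0.84 and 0.88 in mutants and 0.89 and 0.85 in wild type, and of cpx, at 0.98 and 0.99 in mutants and 0.97 in both wild types, were mostly included. Kinase and phosphatase genes held 5 members with 1 tested, in Pka-R1, at 0.65 and 0.38 in mutants and 0.33 and 0.42 in wild type. Transport ATPase genes held 7 members with 3 tested, and 0 were called. The 36 base exon of PMCA, the plasma membrane calcium pump, had 0.96 in both mutants and 0.96 and 0.97 in wild type. Its 69 base exon had 0.82 and 0.83 in mutants and 0.88 and 0.65 in wild type. The groups overlapped for Pka-R1, for Sap47 and for both PMCA exons.

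Genes that hold a member were often among those with a change of exon usage in the authors' deposited tables, which were made with DEXSeq. In the authors' deposited table of mutants over wild type, 96 of 473 such genes (20.3%) had a bin with an adjusted p under 0.05, where 9.8% of all genes did. In the authors' deposited tables of larval stages, made from other libraries, the share was 34 of 471 genes (7.22%) for the third instar at puff stage 1-2 over the second instar, where 3.13% of all genes did. For puff stage 1-2 over the third instar at 12 hours it was 24 of 471 (5.10%), where 1.94% did. The genes with a member had a median of 11 bins tested in the mutant table and all genes 4, so they had more chances to be counted. The mutant table shares its libraries with the inclusion fractions, and its bins carry no coordinates, so none can be set against an exon.

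Of the 7 exons that met the Bayes factor rule, 6 have a gene name. A bin was called in 5 of those genes, where 9.8% of all genes and 20.3% of genes with a member had one. They were picked for a difference in the same libraries, so these calls are not separate evidence. CG18748, in the authors' deposited table of mutants over wild type, had 2 of 5 bins called, with a log2 fold of -0.71 and an adjusted p of 6.36e-05 for the bin with the smallest p. Cpr49Ac had 2 of 9 bins called in the authors' deposited table, with -0.43 (adjusted p = 2.58e-05), and Lsd-2 had 1 of 5, with -0.40 (adjusted p = 0.00793). For fon, the authors' deposited table gave 2 of 6 bins called and a log2 fold of 1.00 in the first bin, at an adjusted p listed as 0. For e(r), the authors' deposited table gave 1 of 3 bins called, with a log2 fold of 0.088 (adjusted p = 0.0311). No bin of dre4 or Ist1 was called in that authors' deposited table, where the smallest adjusted p was 0.0539 and 0.62. Over all genes named here by rule, 13 of 32 in the authors' deposited table had a bin called, where 9.8% of all genes and 20.3% of genes with a member did. Part of the 32 were named for a difference in the same libraries, and genes with a member have more bins. Among the 13 were Rm62 with 2 of 15 bins (log2 fold 1.07, adjusted p = 4.79e-10), Mf with 5 of 15 and Hrb27C with 3 of 8. In the authors' deposited table of puff stage 1-2 over the third instar at 12 hours, bin 7 of Cpr49Ac had a log2 fold of -1.05 (adjusted p = 1.46e-06). Its mutant value above is of another bin, bin 4. For puff stage 1-2 over the second instar, the authors' deposited table gave 0.217 in bin 4, which was not called (adjusted p = 0.411). Mf, PMCA, Tm1, cher, shot and sls also had bins called for puff stage 1-2 over 12 hours. Whether any of these bins is a skipped exon was not tested.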

How the data were processed

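The members and gene lists were chosen with earlier results of these data known. RNA was sequenced from 2 Smn mutant and 2 wild type libraries, grouped by their titles. The authors mapped reads to dm3 using TopHat 2.0.8 with Bowtie2 2.1.0 and then ran MISO 0.4.8 on modENCODE events, per the readme they deposited, pairing each wild type with each mutant library. Per the file headers, the deposited values are an inclusion fraction with an interval, a difference score (wild type minus mutant, turned round here), a Bayes factor ratio and read pairs by isoform class. Listed events had at least 20 read pairs. The authors' deposited DEXSeq tables, for which the readme names Samtools 0.1.19 and DEXSeq from version 1.0.2, hold a log2 fold, a p-value and a mean normalized count signal per bin.

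Here log2((inclusion + 0.5)/(skipping + 0.5)) was fitted on group with limma 3.58.1 (R 4.3.3), weighted by counting variance, for all skipped exons with at least 20 isoform-specific pairs in every library, with Benjamini-Hochberg adjustment over all of them. The functions were tested on simulated data with a replicate SD of 0.5 log2 units, to which counting error was added. In the data, better covered members showed a root mean square difference of 0.583 between mutants and 1.25 between wild types. Members with at least 20 isoform-specific pairs in every library showed 1.09 and 1.43. An SD and a difference between 2 libraries are unlike measures, so these values cannot be set directly against the 0.5. Depth is given in the report. Events were matched to dm6 genes (Ensembl annotation) by exact exon and intron lengths, on the same chromosome and strand, with at least 2 of the 10 nearest matches at the same displacement. This matched 779 of 925 members (772 to 1 gene), and no coordinates were converted. Genes without a match have no name here. Members were named where the Bayes factor rule or limma called them, among the 8 largest non-overlapping differences with a mean of at least 10 pairs of each isoform, near equality, or in the lists and tested. Counting of strand is not given in the sources used here, so overlapping and antisense genes are uncertain. Other event types were left out.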

Additional observations from a re-analysis of the deposited data

How the results depend on the processing

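Of 497 alternatives over 79 results, 478 kept the call and the direction of a test, or moved an untested value by less than the replicate spread or a count by less than 1.5 times. Those 478 include all 422 alternatives of single named members, where no call changed. This says little, as limma called no named member. Leaving out 1 of 2 libraries moves a group mean by less than those 2 differ, so such values could hardly count as moved. The Tm1 exon at 11127346 went from -0.245 to -0.03 without wild type replicate 1 and was counted as kept. In 13 of the 422, over 11 exons with reported differences from -0.155 to 0.06, the sign differed, 8 of them without wild type replicate 2. Limma called 0 members under every limma setting, which in a fit that detects few changes says little about stability. The quasi-binomial fit called 5 of 432, where it called 1.6% of all events tested. Members meeting the Bayes factor rule numbered 11 at a difference of 0.1, 3 at 0.3, 25 and 46 for mutant 1 with wild type 1 and 2, 21 and 44 for mutant 2 with wild type 1 and 2, and 11 to 26 with 1 library left out. With groups at least 0.05 apart, 9.41% of members were higher and 11.6% lower in mutants, where 9.39% and 10.7% of all skipped exons were. The difference in intermediate inclusion (-3.30 points) became 1.39 with at least 20 pairs and 5.15 from isoform-specific pairs. The same difference less that of frame-shifting exons (0.11 points) became 3.95 with at least 20 pairs, 5.62 from isoform-specific pairs, -0.197 with bounds of 0.05 to 0.95, -1.52 with 0.2 to 0.8, and ranged from -0.897 to 1.12 with 1 library left out. The cause was not tested. The replicate block called 0 members and changed no other call. Same-numbered libraries did not deviate together (correlation -0.0175 over 939 events). With 2 libraries per group this cannot show whether same-numbered libraries shared a batch, and no label says so. The quasi-binomial fit on better covered events, which called 0 members, the minimum of 20 pairs for Bayes factors and the better covered non-overlap counts were chosen after seeing the data. Depth limits the exons skipped rarely: 59 members tested had no skipping pair at all.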
